A study of Mus musculus with 16 samples.

Results

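Efferocytosis, the clearance of dying cells, was followed through 10 transcripts: the bridging protein Mfge8, the TAM receptors Tyro3, Axl and Mertk, their ligands Gas6 and Pros1, and the receptors Timd4, Stab1, Trem2 and Megf10. The 10 genes were taken by symbol from tables of 33641 symbols, and all 10 were found. The list was chosen by the low level of Mfge8 in fat of mice labelled knockout, so every value of that contrast is given here as a description with no test. The mice were aged 28 weeks and of the C57BL/6J strain, and their libraries fell into 4 groups: subcutaneous white adipose tissue (scWAT) labelled Adipo-HuR KO (3 libraries, mice A24, A26 and A30), wild-type scWAT (5 libraries, A5, A7, A8, A12 and A14), left ventricle of the heart labelled Adipo-HuR KO (4 libraries, A25, A29, A30 and A31) and wild-type left ventricle (4 libraries, A5, A7, A8 and A14). KO and WT are used below for these genotype labels. Elavl1 encodes HuR, which attaches to AU-rich stretches of messenger RNAs. The label names a deletion of HuR in adipocytes, and the labels give no Cre driver. The 16 libraries came from 11 mice, and 5 mice gave both tissues. Values are TPM, a transcript level scaled for length and to a fixed total per library, and no table gives the depth of a library.

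A dying cell exposes phosphatidylserine on its surface, and phagocytes recognise it directly or through a secreted bridge. Mfge8 (milk fat globule-EGF factor 8) is such a bridge and is held by the integrins made of Itgav with Itgb3 or Itgb5. Gas6 and protein S (Pros1) bridge phosphatidylserine to the receptor kinases Tyro3, Axl and Mertk. Timd4 and Stab1 bind phosphatidylserine directly, Trem2 binds lipids and signals through Tyrobp, and Megf10 is an engulfment receptor known from astrocytes. In fat and heart the receptors are known mainly from resident and recruited macrophages, while Gas6, Axl and Mfge8 are also made by stromal and vascular cells.

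Because HuR binds AU-rich elements, the AU-rich pentamer ATTTA was counted on the sense strand of the 3′ untranslated region of 1 principal transcript per member (GENCODE annotation, GRCm38). Mfge8 held 0 in 640 bases, and Axl (1389 bases), Tyro3 (1070 bases), Stab1 (134 bases) and Trem2 (249 bases) also held 0. Gas6 held 1 in 372 bases, Pros1 2 in 1153, Mertk 2 in 1227, Timd4 2 in 1129 and Megf10 8 in 3412. Over 20714 genes, 62.813% held at least 1, and the median region length was 848 bases. For the 4 members with a match whose sequence can be shown, a window of 30 bases holding the first match is printed 5′ to 3′ with the pentamer, and any repeat that overlaps it, in capitals. These windows are shown as examples of the AU-rich letters that HuR is known for; Megf10, with the most matches, has no window here. The Gas6 window lies at chr8:13465376-13465405 (minus strand), the Pros1 window at chr16:62928400-62928429 (plus strand), the Mertk window at chr2:128802798-128802827 (plus strand) and the Timd4 window at chr11:46843204-46843233 (plus strand). Counts of a pentamer describe the letters and do not show binding.
Gas6: ggaaaataaaatATTTAcagaaaccttttt
Pros1: acttaaatttcaATTTAtttcctataaatg
Mertk: aatacataatatATTTATTTAaagagagaa
Timd4: ctcaccatctttATTTAggattaaggatag

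Promoter windows (RefSeq, GRCm38.p6, 250 bases before to 50 after the start of the gene) were matched for 9 of the 10 members. Mfge8 and Trem2 are shown because their levels differed most between groups, Mfge8 in fat and Trem2 in heart. The GC box GGGCGG, searched on both strands, occurred 4 times in Mfge8, 4 in Gas6, 5 in Pros1, 4 in Mertk, 2 in Axl, 6 in Tyro3 and 0 times in Timd4, Stab1 and Trem2, against 35.658% of 32851 windows with at least 1. The PU.1 core GAGGAA, named for a myeloid transcription factor and also searched on both strands, occurred 1 time each in Mfge8, Axl, Stab1 and Trem2 and 0 times in the other 5, against 28.276% of windows. The TATA box TATAAA occurred in none of the 9, against 13.616% of windows. The Mfge8 window (chr7:79149011-79149310, minus strand) has its GC boxes in capitals, and the Trem2 window (chr17:48346151-48346450, plus strand) its PU.1 core, each as read on the printed strand.
Mfge8: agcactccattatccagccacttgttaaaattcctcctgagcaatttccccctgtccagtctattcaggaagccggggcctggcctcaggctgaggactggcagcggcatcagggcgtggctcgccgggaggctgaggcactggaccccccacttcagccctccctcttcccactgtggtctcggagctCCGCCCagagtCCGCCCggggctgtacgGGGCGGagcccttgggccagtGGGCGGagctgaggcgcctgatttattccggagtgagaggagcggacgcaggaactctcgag
Trem2: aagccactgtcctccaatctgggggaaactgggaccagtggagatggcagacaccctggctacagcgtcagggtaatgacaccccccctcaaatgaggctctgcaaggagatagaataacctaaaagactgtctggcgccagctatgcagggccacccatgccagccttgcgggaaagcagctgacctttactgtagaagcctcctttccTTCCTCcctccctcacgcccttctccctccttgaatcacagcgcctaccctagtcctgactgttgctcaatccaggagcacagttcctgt

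Several libraries stood apart from their group, by marker genes or, for A29, by the members themselves. Elavl1 stood at 36.2 to 42.9 TPM in KO scWAT, against 19.0 to 34.5 TPM in WT scWAT, which goes against the label, so directions below are between labels. Among scWAT libraries labelled KO, A26 carried summed B cell markers of 415.5 TPM (WT scWAT at most 18.8 TPM) and A24 and A30 summed skeletal muscle fibre markers of 2385 and 5266 TPM (WT scWAT at most 540.3 TPM, in A7). Adipocyte markers summed to 52640 to 65160 TPM in KO scWAT, against 43140 to 70500 TPM in WT scWAT, and cardiomyocyte markers to 13920 to 24650 TPM in KO hearts, against 19970 to 27930 TPM in WT hearts, so both tissues carried the markers of their label. The heart library A29, labelled KO, sat with the WT hearts for most members, and heart results are given with and without it. All libraries are bulk tissue, in which fewer cells of a type and less RNA per cell cannot be told apart.

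Mfge8 was the most abundant member in scWAT and the one member whose scWAT groups did not overlap. It stood at 214.6, 201.9 and 355.3 TPM in the libraries labelled KO A24, A26 and A30, against 640.3, 615.0, 667.3, 611.1 and 640.5 TPM in the WT libraries A5, A7, A8, A12 and A14. Every KO library lay below every WT library, and the WT libraries lay within a narrow band. The means were 257 ± 85.2 TPM in KO scWAT (SD, n = 3) and 635 ± 22.7 TPM in WT scWAT (SD, n = 5), a log2 difference of -1.35 (SE 0.19). By TPM it ranked 378 to 633 among all genes of the KO libraries and 198 to 225 among those of the WT libraries. This difference chose the list and carries no test. Leaving out A30, the KO library with the most skeletal muscle RNA and the highest Mfge8 level, gave -1.60, and leaving out A26, the library with lymphocyte markers, gave -1.20. Markers of mammary or other epithelium, a tissue in which Mfge8 is abundant, summed to at most 14.2 TPM in any scWAT library. The smooth muscle and pericyte markers summed to 132.4 to 340.0 TPM in KO scWAT, against 299.7 to 576.0 TPM in WT scWAT, and their part in the Mfge8 level was not tested. Among the 8 adipocyte markers, whose sums overlapped, Cidec was below every WT library (3177 to 3518 TPM in KO scWAT, against 3676 to 3955 TPM in WT scWAT). Lep averaged 617.5 TPM in KO scWAT and 1661 TPM in WT scWAT, Retn 1411 TPM in KO scWAT and 2330 TPM in WT scWAT, and Cfd 17730 TPM in KO scWAT and 9472 TPM in WT scWAT, each with overlap. The part of adipocyte content in the Mfge8 level was not tested either.

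**Figure D1:**
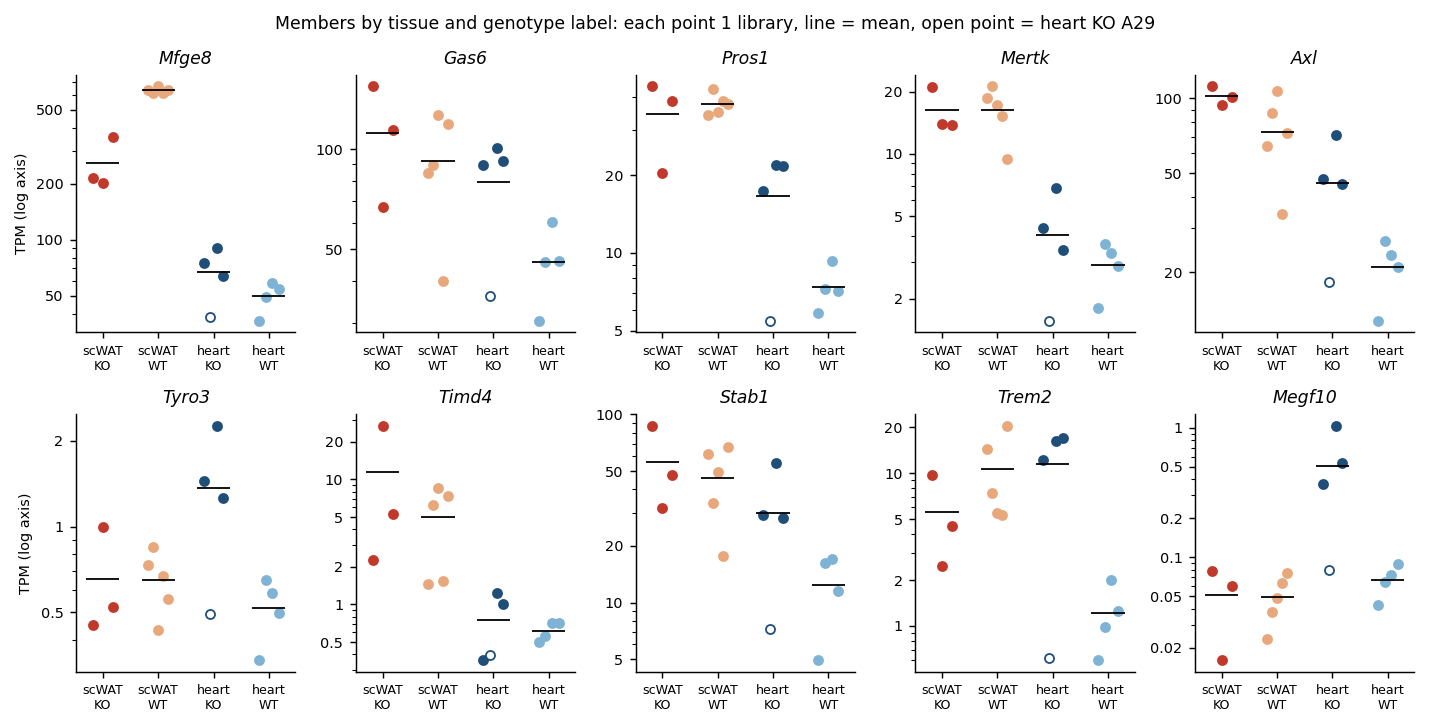
TPM on a log axis for the 10 members, 1 panel each, with 1 point per library, a line at the group mean, and the groups KO scWAT, WT scWAT, KO heart and WT heart from left to right. The 3 KO scWAT points of Mfge8 (201.9 to 355.3 TPM) lie below the 5 WT scWAT points (611.1 to 667.3 TPM), and the open point, heart library A29, lies apart from the other KO hearts in most panels.

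The integrin subunits that hold Mfge8 did not share one direction in fat. Itgb5 stood at 87.6, 32.5 and 81.9 TPM in KO scWAT, against 91.8 to 140.1 TPM in WT scWAT, with no overlap. Itgb3 stood at 2.61 to 5.66 TPM in KO scWAT, against 1.38 to 2.37 TPM in WT scWAT, also with no overlap and in the other direction. Its highest level was in A26, the library with lymphocyte markers. Of 13682 genes, 5.06% were lower and 5.23% higher with no overlap between the scWAT labels. Itgav overlapped (9.43 to 18.2 TPM in KO scWAT, 10.5 to 16.8 TPM in WT scWAT). The ratio of Mfge8 to Itgb5 overlapped as well, at 2.45 to 6.21 in KO scWAT and 4.57 to 7.27 in WT scWAT.

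The other members of scWAT overlapped between the labels, and none of their values is tested. The bridging ligand Gas6 stood at 154.6, 67.1 and 114.3 TPM in KO scWAT A24, A26 and A30, against 84.6, 89.7, 126.8, 40.2 and 119.4 TPM in WT scWAT A5, A7, A8, A12 and A14. Pros1, the other TAM ligand, stood at 44.2, 20.3 and 38.6 TPM in KO scWAT, against 34.2, 42.9, 35.0, 38.8 and 37.6 TPM in WT scWAT. Both ligands were lowest among KO libraries in A26, and Gas6 was lowest of all in the WT library A12. Markers of fibroblasts and adipose progenitors summed to 3290, 815.3 and 2328 TPM in KO scWAT A24, A26 and A30. In WT scWAT they summed to 1757 TPM in A12, the lowest, and up to 3233 TPM. The part of these cells in the ligand levels was not tested.
The receptor Axl stood at 111.6, 94.0 and 101.4 TPM in KO scWAT, against 64.5, 87.4, 106.8, 34.2 and 72.3 TPM in WT scWAT. Mertk stood at 21.2, 14.01 and 13.8 TPM in KO scWAT, against 18.7, 21.3, 17.2, 15.2 and 9.41 TPM in WT scWAT. Axl was in the upper part of the WT range or above it in all KO libraries, and Mertk averaged 16.3 TPM in KO scWAT and 16.4 TPM in WT scWAT. The 12 macrophage markers summed to 1023 to 1646 TPM in KO scWAT, against 578.5 to 1335 TPM in WT scWAT. Set per 100 TPM of these markers, Axl overlapped, at 5.71 to 9.91 in KO scWAT and 5.42 to 9.71 in WT scWAT. The part of macrophage content in these levels was not tested.
Stab1, the scavenger receptor of resident macrophages and some endothelium, stood at 87.3, 32.0 and 47.6 TPM in KO scWAT, against 61.4, 33.7, 49.4, 17.6 and 67.2 TPM in WT scWAT. Trem2 stood at 9.80, 2.46 and 4.50 TPM in KO scWAT, against 14.5, 7.45, 5.49, 5.36 and 20.6 TPM in WT scWAT. Timd4 stood at 2.25, 26.9 and 5.25 TPM in KO scWAT, against 1.45, 6.23, 8.48, 1.55 and 7.32 TPM in WT scWAT. The highest Timd4 level of the series was in A26, the library with lymphocyte and lymph node markers, and the KO minus WT log2 difference was 0.69 with A26 and -0.19 without it.
Tyro3 stayed at 0.45 to 0.99 TPM in KO scWAT, against 0.43 to 0.84 TPM in WT scWAT, and Megf10 at no more than 0.0777 TPM in any scWAT library. Of the 8 members with a mean of at least 1 TPM, 1 did not overlap between the scWAT labels, Mfge8, beside 5.06% of 13682 genes that were lower with no overlap and 5.23% that were higher. Across all genes, limma on log2(TPM + 1) called 3 of 13682 (0.0219%) between the scWAT labels at a Benjamini-Hochberg threshold of 0.05. Mfge8 made up 33.2% to 52.2% of the summed TPM of the 10 members in KO scWAT, against 65.6% to 79.9% in WT scWAT.

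Genes whose pattern over the 16 libraries was most like that of Mfge8 were found by the root mean square difference of log2(TPM + 1), each gene centred on its own mean, among 9558 genes averaging 5 TPM or more. The 5 nearest were the AMPA receptor auxiliary subunit Cacng7 (0.20), Parva (0.25), the heme transporter Slc48a1 (0.26), Arhgef28 (0.28) and App (0.29), against a median of 1.08 over the genes compared, and the nearest other member was at 0.76. Parva, an actin-binding adaptor of integrin adhesions, stood at 46.7 to 105.7 TPM in KO scWAT, against 98.8 to 140.7 TPM in WT scWAT. App, the amyloid precursor protein, stood at 154.5 to 372.4 TPM in KO scWAT, against 395.7 to 614.2 TPM in WT scWAT. The 16 libraries include the scWAT values that chose the list, so genes picked for likeness to Mfge8 were favoured to be lower in KO scWAT as well. Cacng7 stood at 0.960 to 2.76 TPM in KO hearts and 0.818 to 1.90 TPM in WT hearts, where the added 1 weighs on its distance. The distances also share the difference between tissues and describe likeness of level only.

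In the heart, where no deletion was named, the comparison asks whether the same genes differ between the labels. With all 4 KO hearts, none of the 7 members with a mean of at least 1 TPM was called by limma with adjustment over 11981 genes. All 7 had a positive difference, beside 72.4% of all genes, and 4 had an unadjusted p under 0.05, all higher, beside 20.9% of all genes higher and 3.66% lower at that level. The background in this comparison was 0.0501% of genes called higher and 0 called lower. The median log2 difference of all genes was 0.26, and differences relative to it are given beside the fitted ones. Mitochondrially encoded transcripts took 46.2%, 55.7%, 43.4% and 48.9% of the TPM in KO hearts A25, A29, A30 and A31, against 51.9% to 60.6% in WT hearts. Without A29, this share was thus lower in every KO heart than in every WT heart, which leaves more of the fixed total to other genes.

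Trem2, the lipid receptor of macrophages, showed the widest gap of the members. It stood at 12.2, 0.615, 16.3 and 17.0 TPM in the KO hearts A25, A29, A30 and A31, against 0.598, 0.988, 1.99 and 1.26 TPM in the WT hearts A5, A7, A8 and A14. A25, A30 and A31 lay far above every WT heart and A29 lay at the low end of the WT range. The log2 difference was 2.07 (SE 0.66; relative to the median 1.81; limma adjusted p = 0.142; exact permutation p = 0.114, where 0.0286 is the smallest that 4 against 4 hearts allow). Its signalling partner Tyrobp followed the same libraries, at 103.4, 10.1, 106.1 and 140.8 TPM in KO hearts, against 10.1, 13.5, 18.5 and 12.2 TPM in WT hearts (limma adjusted p = 0.142).

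Axl and its ligands were likewise higher in A25, A30 and A31 than in A29. Axl stood at 47.2, 18.3, 71.4 and 45.2 TPM in KO hearts A25, A29, A30 and A31, against 12.8, 26.6, 23.4 and 20.99 TPM in WT hearts A5, A7, A8 and A14 (log2 difference 0.98, SE 0.37; relative to the median 0.73; limma adjusted p = 0.157). Gas6 stood at 89.5, 36.1, 100.6 and 92.1 TPM in KO hearts, against 30.5, 45.8, 60.4 and 46.0 TPM in WT hearts (0.73, SE 0.33; relative to the median 0.47; limma adjusted p = 0.203). Pros1 stood at 17.4, 5.47, 21.9 and 21.8 TPM in KO hearts, against 5.87, 7.27, 9.29 and 7.11 TPM in WT hearts (0.93, SE 0.38; relative to the median 0.67; limma adjusted p = 0.171). For all 3 genes, A29 lay within or below the WT range and the other KO hearts above it.
Stab1 stood at 29.1, 7.22, 55.2 and 28.1 TPM in KO hearts, against 4.96, 16.3, 17.1 and 11.5 TPM in WT hearts (log2 difference 1.03, SE 0.54; relative to the median 0.78; limma adjusted p = 0.253). Mertk stood at 4.39, 1.56, 6.82 and 3.44 TPM in KO hearts, against 1.81, 3.66, 3.32 and 2.86 TPM in WT hearts (0.28, SE 0.34; relative to the median 0.03; limma adjusted p = 0.608). Of the 7 members tested, Mertk was the one whose KO and WT hearts overlapped even without A29.
Mfge8 stood at 74.7, 38.4, 89.7 and 63.7 TPM in KO hearts, against 36.7, 49.4, 58.2 and 54.4 TPM in WT hearts. The log2 difference was 0.37 (95% interval -0.21 to 0.96; relative to the median 0.12; limma adjusted p = 0.389, exact permutation p = 0.229), so the heart groups were not told apart for the gene that chose the list. Of the low members, Tyro3 stood at 1.45, 0.494, 2.27 and 1.26 TPM in KO hearts, against 0.340, 0.651, 0.584 and 0.499 TPM in WT hearts. Megf10 stood at 0.371, 0.0795, 1.04 and 0.535 TPM in KO hearts, against 0.0430 to 0.0885 TPM in WT hearts, with A29 alone in the WT range. Timd4 overlapped, at 0.360 to 1.25 TPM in KO hearts and 0.497 to 0.708 TPM in WT hearts. The exact permutation p was 0.114 for Tyro3, 0.0571 for Megf10 and 0.657 for Timd4, over all 4 KO and 4 WT hearts.

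**Figure D2:**
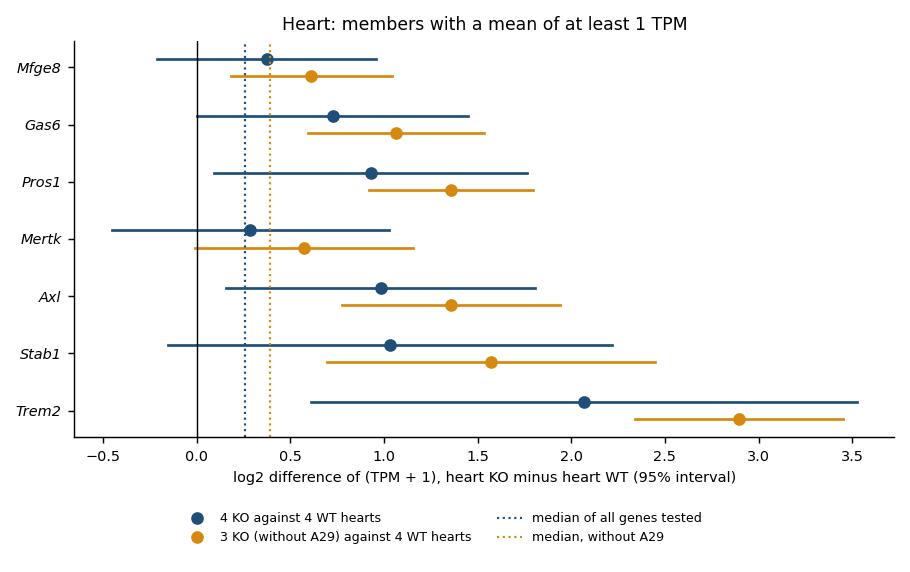
Log2 difference of TPM + 1, KO minus WT heart, with its 95% interval, for the 7 members with a mean of at least 1 TPM, with 4 KO hearts (blue) and with the 3 that remain without A29 (orange); dotted lines mark the median of all genes. Trem2 is farthest right at 2.07 and 2.90, and the Mertk interval reaches below 0 in both fits.

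Without A29, the same 7 members were tested and 6 were called higher, all but Mertk (adjusted p = 0.109), beside 34.8% of 12081 genes called higher and 4.16% called lower. A29 was set aside for lacking these very differences, so the calls without it are not independent of that choice. Trem2 reached a log2 difference of 2.90 (SE 0.25; relative to the new median of 0.39, 2.51; limma adjusted p = 4.3e-05), Pros1 1.36 (limma adjusted p = 0.000599), Axl 1.36 (limma adjusted p = 0.00297), Gas6 1.06 (limma adjusted p = 0.00346) and Stab1 1.57 (limma adjusted p = 0.0112). Mfge8 reached 0.61 (relative to the median 0.22; limma adjusted p = 0.0305), and with median-of-ratios scaling as well it was at 0.11 and was no longer called (limma adjusted p = 0.546). Tyro3 reached a mean of 1 TPM in this fit only through the KO hearts and is left out of these counts, with no test. Groups did not overlap for 6 of the 7 members without A29, all higher in KO hearts, beside 45.3% of all genes that were higher and 3.65% that were lower, and for 0 of 7 with A29, beside 3.71% higher and 0.634% lower. With limma's array weights, which give an outlying library less weight, 6 of 7 members were called higher, all but Mertk, beside 43.1% of genes called higher and 22.7% lower. These weights are estimated from the same heart values, so the calls with them are not independent of those values either. Without A29 and with median-of-ratios scaling, 5 of 7 were called higher, beside 19.5% called higher and 20.9% lower.

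Macrophage markers moved with these members. The 12 markers summed to 843.0, 108.4, 920.9 and 1111 TPM in KO hearts A25, A29, A30 and A31, against 107.9 to 174.4 TPM in WT hearts. Without A29, 12 of 12 lay above every WT heart, beside 45.3% of all genes. That share stands beside each such count below, and A29 was set aside for lacking such differences. Fibroblast markers (7 genes) summed to 1302, 240.1, 2344 and 1637 TPM in KO hearts, against 198.1 to 297.5 TPM in WT hearts, with 7 of 7 above every WT heart without A29. Markers of smooth muscle and pericytes summed to 335.9, 210.6, 366.3 and 359.5 TPM in KO hearts, against 205.0 to 262.4 TPM in WT hearts, with 3 of 4 markers above every WT heart without A29. Endothelial markers summed to 177.3, 226.4 and 201.1 TPM in KO hearts A25, A30 and A31 and lower in A29, against 114.7 to 182.5 TPM in WT hearts, with 3 of 5 above. Lymph node stroma markers summed to 74.97, 15.05, 70.89 and 98.49 TPM in KO hearts, against 11.1 to 38.5 TPM in WT hearts, with 1 of 3 above. The highest single gene of that list reached 98.1 TPM in KO hearts and 37.4 TPM in WT hearts, nearly the whole of the highest sums. In WT hearts 1 of the 3 was at 0 in every library. Epithelial markers summed to 15.6, 0.174, 23.8 and 18.6 TPM in KO hearts, against 0.266 to 2.55 TPM in WT hearts, with 1 of 8 above; Krt18 alone reached 22.1 TPM in KO hearts, Krt5 was at 0 in every KO heart, and Epcam was at no more than 0.0428 TPM. The part of these cell types in the member levels was not tested. Set per 100 TPM of the macrophage markers, Trem2 stood at 1.44, 0.568, 1.77 and 1.53 in KO hearts, against 0.555 to 1.14 in WT hearts, and Mertk at 0.309 to 1.44 in KO hearts, against 1.68 to 2.62 in WT hearts. Trem2 was thus above the WT range in 3 KO hearts on this scale and Mertk below it in all 4.

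**Figure D3:**
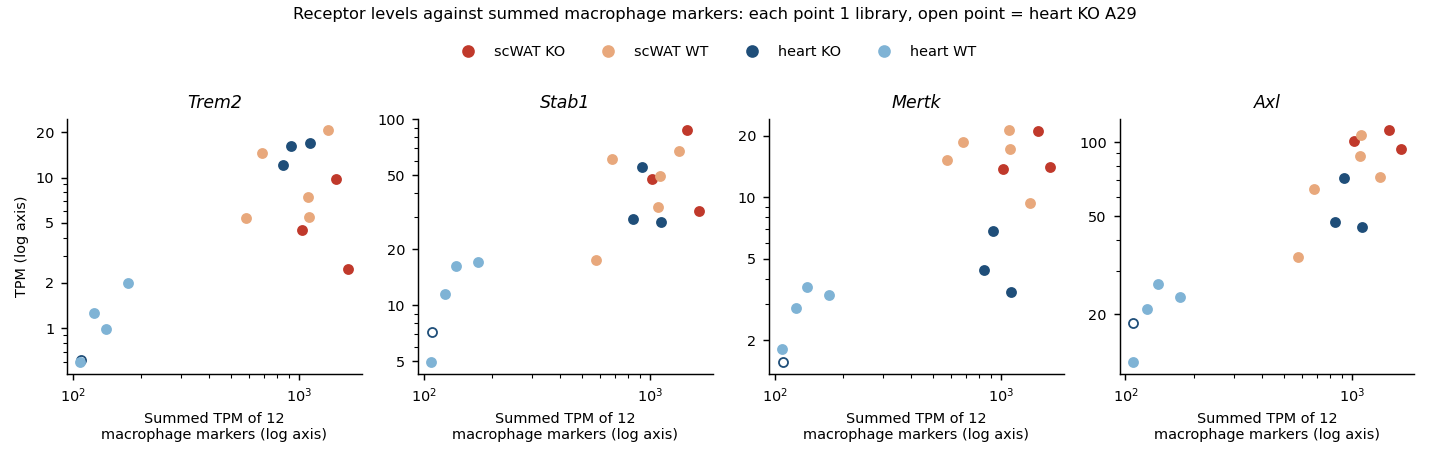
TPM of Trem2, Stab1, Mertk and Axl against the summed TPM of 12 macrophage markers, both on log axes, 1 point per library; the open point is heart library A29. KO hearts other than A29 sit at 843.0 to 1111 TPM of markers beside the scWAT libraries, while A29 sits at 108.4 TPM among the WT hearts (107.9 to 174.4 TPM).

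The make-up of the TAM receptors in heart kept the labels apart in every library, A29 included. Mertk made up 8.28%, 7.67%, 8.48% and 6.89% of the summed TPM of Axl, Mertk and Tyro3 in KO hearts A25, A29, A30 and A31, against 12.1%, 11.8%, 12.1% and 11.8% in WT hearts A5, A7, A8 and A14. Axl made up 88.7% to 90.6% in KO hearts, against 85.6% to 86.2% in WT hearts, and Tyro3 2.42% to 2.82% in KO hearts, against 2.05% to 2.28% in WT hearts. The Tyro3 share rests on low levels, 0.340 to 0.651 TPM in WT hearts and 0.494 TPM in A29, with the depth unknown. The heart groups did not overlap for any of the 3 shares, which add to the whole and are not independent of each other, and within a library a share does not depend on the scaling of TPM. In scWAT the shares overlapped, with Mertk at 11.9% to 15.9% in KO libraries and 11.4% to 30.4% in WT libraries. The ratio of Mfge8 to Itgb5 was likewise lower in every KO heart, at 0.844 to 1.44, against 1.52 to 1.68 in WT hearts. The ratio of Gas6 to Pros1 overlapped, at 4.23 to 6.59 in KO hearts and 5.19 to 6.50 in WT hearts. These ratios were chosen after their values had been seen, 6 of 14 computed did not overlap in heart, and they are given with no test.

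**Figure D4:**
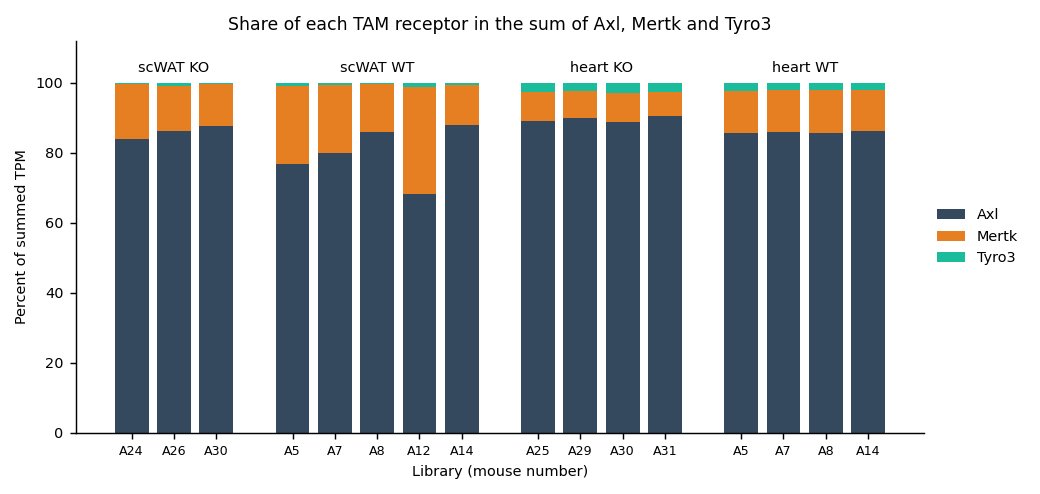
Share of Axl, Mertk and Tyro3 in their summed TPM, in percent, 1 stacked bar per library, with KO left of WT in each tissue. The Mertk segment of the 4 KO hearts (6.89% to 8.48%) is shorter than that of the 4 WT hearts (11.8% to 12.1%), while the scWAT libraries overlap.

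Other genes of the pathway, a list of 42 in 5 classes, showed the same dependence on A29. With all libraries 34 were tested in heart and 0 were called, with 16 at an unadjusted p under 0.05 by limma, all higher, beside 20.9% of all genes higher and 3.66% lower at that level. The list's median log2 difference was 0.70, against 0.26 for all genes. Without A29, 24 were called higher and 0 lower, beside 34.8% of all genes higher and 4.16% lower. Among the 24, Cd300lb averaged under 1 TPM in WT hearts and entered through the KO hearts. The 24 were 5 of 5 bridging molecules, 5 of 8 receptors, 6 of 8 signalling genes, 4 of 5 genes of exposure and shielding on the dying cell and 4 of 8 of digestion and response. The list's median was then 1.05, against 0.39 for all genes. The largest were Thbs1 (log2 difference 3.05), Tyrobp (3.03), Anxa1 (2.88), the complement bridges C1qb (2.75), C1qc (2.58) and C1qa (2.54), the integrin subunit Itgb2 (1.98) and Cd24a (1.97). Thbs1, a bridge to Cd36, stood at 14.1, 0.650, 33.5 and 16.5 TPM in KO hearts, against 0.829, 2.89, 1.93 and 0.936 TPM in WT hearts. The Mfge8 receptors Itgb5 (1.31, limma adjusted p = 0.000336) and Itgav (1.06, limma adjusted p = 0.0183) were called higher without A29, as was Adam17, the protease that sheds Mertk (0.82, limma adjusted p = 0.00901). Itgb3 stayed under a mean of 1 TPM, at 0.249 to 1.77 TPM in KO hearts and 0.213 to 0.617 TPM in WT hearts. The fatty acid and thrombospondin receptor Cd36 was not called, at 566.4 to 813.4 TPM in KO hearts and 623.6 to 721.4 TPM in WT hearts.

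Between tissues of WT mice, the members were lower in heart than in scWAT, as were most genes, and for Gas6 the direction turned with the scaling. Mfge8 is given here as a description, since its scWAT level chose the list, and Timd4 is left out of the counts, since it reached a mean of 1 TPM only through scWAT. Of the other 6 members tested, 6 were called lower in WT heart, beside 78.5% of 13093 genes called lower and 8.12% called higher (limma). Groups did not overlap for 5 of the 6, all but Gas6 and all lower in WT heart, beside 73.2% of genes that were lower and 6.74% that were higher. Mitochondrially encoded transcripts took 51.9% to 60.6% of the TPM in WT heart, against 6.14% to 14.4% in WT scWAT, and the median difference of all genes was -1.27. Mfge8 stood at 36.7 to 58.2 TPM in WT heart, against 611.1 to 667.3 TPM in WT scWAT, a log2 difference of -3.67 (SE 0.15; relative to the median -2.40). Trem2 (relative to the median -0.99), Pros1 (-0.95), Mertk (-0.86), Stab1 (-0.52) and Axl (-0.44) were also below the median of all genes. Gas6 was above it, at 0.33 relative to the median and -0.94 (SE 0.31; limma adjusted p = 0.0119) before that subtraction. Timd4 stood at 0.497 to 0.708 TPM in WT heart, against 1.45 to 8.48 TPM in WT scWAT. With median-of-ratios scaling 3 of the 6 were called lower, Trem2 (-1.23), Mertk (-0.90) and Pros1 (-0.86), beside 34.2% of genes called lower and 33.1% called higher, and Gas6 turned to 0.50 (limma adjusted p = 0.0872). Without the WT heart A5, Gas6 was no longer called in the unscaled fit (limma adjusted p = 0.0532).
Within the mice that gave both tissues, heart Mfge8 was 0.252 times the scWAT level in A30, labelled KO, against 0.0573, 0.0804, 0.0872 and 0.0849 times in the WT mice A5, A7, A8 and A14. A30 is 1 mouse, and the ratio uses the scWAT level that chose the list. The heart level of Trem2 was 3.63 times the scWAT level in A30, against 0.0413 to 0.363 times in the 4 WT mice, and that of Stab1 1.16 times in A30, against 0.0807 to 0.483 times in the WT mice. Tyro3 was at 4.34 times in A30, against 0.466 to 1.35 times in the WT mice. Megf10 was at 17.4 times in A30 and was higher in heart than in scWAT in every WT mouse as well (1.17 to 1.84 times).
Of the pathway list, 36 of 36 genes tested were called lower in WT heart, beside 78.5% of 13093 genes called lower and 8.12% called higher. Cd300lb, Itgb3 and Xkr8 entered through scWAT, and without them the count was 33 of 33. With median-of-ratios scaling 20 of the 33 were called lower and 4 higher, beside 34.2% of genes called lower and 33.1% called higher. The largest differences were those of Anxa1 (log2 difference -5.39), the adipocyte regulator Pparg (-5.01), Lrp1 (-3.51), Tyrobp (-3.43), Nr1h3 (-3.42), Abca1 (-3.28), Thbs1 (-3.27) and Itgb2 (-2.98). They are given before subtraction of the median of all genes (-1.27).

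By mean level, Mfge8 led the members in KO scWAT, in WT scWAT and in WT heart, and Gas6 led in KO heart. In both scWAT groups no Mfge8 library overlapped the libraries of Gas6, the next member. In KO hearts Gas6 (79.6 ± 29.4 TPM, SD, n = 4) and Mfge8 (66.6 ± 21.6 TPM) overlapped, and in WT hearts Mfge8 (49.7 ± 9.36 TPM, SD, n = 4) and Gas6 (45.7 ± 12.2 TPM) overlapped. Axl and then Stab1 followed in all 4 groups, with Pros1 after them. Axl was the most abundant TAM receptor, with Mertk next and Tyro3 last, in all 4 groups. Megf10 was last in all 4 groups. Trem2 stood above Mertk in KO heart and below it in the other 3 groups. The libraries of Trem2 and Mertk overlapped in KO heart and in both WT groups.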

How the data were processed

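Total RNA was extracted from frozen tissue with Trizol and made into libraries with an Illumina TruSeq kit, per the labels' protocols. For each library the authors deposited TPM values by gene symbol, per the file headers, which sum to 1000000. The aligner, quantifier, annotation and genome version were not given in the sources used here. TPM keeps no depth, so the depth is unknown and no counting interval is given. Missing exons cannot be seen in a value per gene. The members and lists were chosen with earlier results of these data known.

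From the deposited TPM, log2(TPM + 1) was computed with a pseudocount of 1, which understates changes of low genes. Genes averaging 1 TPM or more in a fit's libraries entered limma (version 3.58.1, R 4.3.3, trended prior), 2-sided, with p-values adjusted by Benjamini-Hochberg over all genes tested with a threshold of 0.05. Each comparison was fitted on its own groups. The exact permutation test of single members was 2-sided (scipy 1.17.1). The fitting step was tested on simulated data. Beside the 10 members, the text names at most 8 genes per direction of the pathway list past the threshold by size, in heart those of the fit without A29, plus Itgav, Itgb3, Itgb5, Tyrobp and Adam17; Cd36 in heart and the ratios were named after their values were seen. Each library of a group came from another mouse. The labels' mouse numbers tie heart and scWAT of 4 wild-type mice to the same animal; the correlation of their deviations from the group means over 10970 genes was 0.08, 0.039, 0.13 and 0.173 in A5, A7, A8 and A14.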

Additional observations from a re-analysis of the deposited data

How the results depend on the processing

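Heart calls depended on A29. Over leaving out each heart library in turn, members called higher ran from 0 to 7 (6 without Tyro3, which entered through the KO hearts). Genes of the pathway list called higher ran from 0 to 24 (23 without Cd300lb, which also entered through the KO hearts). All genes called higher ran from 3 to 4203 and all genes called lower from 0 to 502. Each of these counts was highest without A29. The pathway counts below with array weights and with scaling leave out Cd300lb. With array weights 6 members and 26 pathway genes were called higher and 1 (Rubcn) lower, with 5160 of all genes higher and 2725 lower. Without A29 and with median-of-ratios scaling, an alternative chosen after seeing the data, 5 members, 20 pathway genes and 2335 of all genes were called higher and 2497 lower. A filter of 5 TPM left 2 genes called higher, and no filter gave 2 called lower. In WT heart minus WT scWAT, counts of members leave out Mfge8 and Timd4. Counts of the pathway list leave out Cd300lb, Itgb3 and Xkr8, which entered through scWAT. Median-of-ratios scaling gave 3 of 6 members and 22 pathway genes lower, 4 pathway genes higher, and 4272 of all genes higher and 4413 lower. Without mitochondrially encoded genes 2725 were higher and 6547 lower. The log2 difference of Gas6 reversed under both alternatives, at 0.50 when scaled by median-of-ratios and at 0.063 once mitochondrially encoded genes were removed, and the cause was not tested. With the mouse as a replicate block, 6 of 6 members and 33 of 33 pathway genes were called lower, as without it. Of all genes, 10359 were then called lower and 1011 higher, against 10279 and 1063 without the block. The scWAT difference of Mfge8 ran from -1.60 to -1.20 over 15 alternatives. Depth is unknown and limits what can be said of members under 1 TPM.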

Other observations

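In scWAT, 3 of 37 tested genes of the pathway list were higher with no overlap and 1 was lower, beside 5.23% of all genes higher and 5.06% lower, so neither count stands far from all genes. This is a description, since the contrast chose the members. Beside Itgb3 and Itgb5, these were Cd24a, a shield against engulfment that B cells also carry, and Rubcn, a regulator of phagosome maturation, both named after their values were seen. Cd24a stood at 13.0, 50.8 and 23.2 TPM in KO scWAT A24, A26 and A30, against 5.27 to 8.62 TPM in WT scWAT, with its highest level in A26, the library with lymphocyte markers. Rubcn stood at 17.6 to 18.4 TPM in KO scWAT, against 11.9 to 16.8 TPM in WT scWAT.

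Set per 100 TPM of the macrophage markers in heart, Timd4 stood at 0.0427, 0.365, 0.135 and 0.0908 in the KO hearts A25, A29, A30 and A31, against 0.404 to 0.571 in WT hearts, with no overlap. Stab1 stood at 2.53 to 6.67 in KO hearts, against 4.60 to 11.7 in WT hearts, and Axl at 4.07 to 16.9 in KO hearts, against 11.8 to 19.1 in WT hearts, with the highest KO value of both in A29. The ratio of Trem2 to Tyrobp overlapped, at 0.0609 to 0.154 in KO hearts and 0.0596 to 0.108 in WT hearts. The summed ligands Gas6 and Pros1 per summed TAM receptor TPM also overlapped, at 1.52 to 2.28 in KO hearts and 1.72 to 2.55 in WT hearts. These values carry no test.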
